A study of Sus scrofa with 36 samples.

Results

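The comparison concerned the 10 arrays whose description code began with S2 and the 8 whose code began with S3, which are 18 of the 36 arrays of the series. Each array measured the RNA of the hippocampus of 1 male Landrace by Large White piglet, and every array with either code was kept. All 36 piglets had been placed in a feeding group at 3 days old and were sampled on postnatal day 38. The controls drank milk replacer, and the other groups drank it with lactoferrin, the iron-binding protein of milk, added at 0.6 or 1.2 g/L. Set S2 held 2 control piglets, 4 at 0.6 g/L and 4 at 1.2 g/L, and set S3 held 3, 3 and 2. The other arrays carried the codes S1 (4 arrays), S4 (9) and S5 (5). The labels do not say what the set code marks, so whether it stands for a litter, a working day or something else is unknown, and no treatment separated S2 from S3. Litters are not given either, so the p-values measure the spread between these piglets only.

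The hippocampus is a forebrain region needed for memory, built of excitatory and inhibitory neurons, of astrocytes that take up transmitter and supply nutrients, of myelinating oligodendrocytes and of microglia, its resident immune cells. A level read from a piece of this tissue is a mean over all of those cells. Fewer cells of a type and less RNA per cell cannot be told apart in it. Neuron transcripts stood high in both sets: SNAP25, a synaptic fusion protein, averaged log2 12.91 in S2 and 12.94 in S3. Of 7 measured subfield genes, RGS14, a CA2 signalling regulator, averaged 9.59 and 9.51, and NEUROD1, a granule neuron transcription factor, 6.72 and 6.70. MAN1A1 of the same list averaged 7.29 and 7.05 (limma, unadjusted p = 0.046), and PDYN and DSP were higher in S2 by 0.29 and 0.18. The median difference S2 minus S3 of the 7 genes was 0.03. By feeding group it was -0.15 in controls, 0.27 at 0.6 g/L and 0.175 at 1.2 g/L, so the direction varied. TTR, the abundant transthyretin of the choroid plexus, averaged 6.46 ± 0.71 (SD, n = 10) and 6.45 ± 0.69 (SD, n = 8). LTF, which encodes lactoferrin, was too dim to be tested, at 4.55 ± 0.32 in S2 and 4.63 ± 0.26 in S3.

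Few transcripts separated the sets after correction. A linear model with set and feeding group called 4 of 18006 probe sets (0.0222%) at an adjusted p under 0.05, 3 of them higher in S2. At an unadjusted p under 0.05 it called 1403 (7.79%), of which 865 were higher in S2 and 538 higher in S3, so 61.7% of these leaned to S2. That split varied with the setting: with each array centred on its median, 50.8% of 1397 leaned to S2. More of the lean stayed after quantile normalisation (846 of 1434 higher in S2) and without S2 replicate 1 (964 of 1750). In control arrays alone it turned, with 44.2% of 981 higher in S2. The deposited values carry 1 decimal, and S2 replicate 1 alone had a median of 6.7 where the other 17 arrays had 6.6. The values of S2 and S3 did not overlap at all in 1 probe set (0.00555%). It belongs to SRSF11, a splicing factor gene, and lay between 8.4 and 8.5 in S2 and between 8.1 and 8.3 in S3. It was picked out after its values were seen, its adjusted p was 0.331, and 3 other SRSF11 probe sets differed by -0.09, -0.05 and -0.02.

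KCNJ5 encodes a subunit of the potassium channel that G protein-coupled receptors open to quiet neurons. In S2 its lowest level was log2 7.1, its median 7.35 and its highest 7.7. In S3 these were 6.1, 6.7 and 7.2, and every S2 array lay above the S3 median. KCNJ5 was higher in S2 by 0.73 (SE 0.11, adjusted p = 0.0264), or 1.66-fold, and its values overlapped only between 7.1 and 7.2. Within feeding groups the difference was 0.57 in controls, 0.59 at 0.6 g/L and 1.05 at 1.2 g/L. A second, dimmer KCNJ5 probe set differed by -0.0018 (unadjusted p = 0.98), so the change rests on 1 of 2 probe sets.

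RLBP1 encodes a carrier of retinaldehyde best known from retinal glia. Its level ran from log2 8.1 over a median of 8.6 to 9.2 in S2, and from 7.2 over 7.95 to 8.4 in S3. The highest S3 array thus lay above 2 of the S2 arrays, at 8.1 and 8.3. RLBP1 was higher in S2 by 0.82 (SE 0.14, adjusted p = 0.0396), or 1.76-fold. The difference was 0.40 in controls, 0.79 at 0.6 g/L and 1.23 at 1.2 g/L, and limma's F test of the difference between feeding groups gave an unadjusted p of 0.0527 and an adjusted p of 0.653.

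PCF11 encodes a subunit of the complex that cuts and ends messenger RNAs. Its S3 values were nearly flat, 7.5 on 6 arrays and 7.6 on 2. In S2 they ran from 7.6 over a median of 7.9 to 8.2, with a single array, replicate 4, at 7.6. PCF11 was higher in S2 by 0.41 (SE 0.07, adjusted p = 0.0396), or 1.33-fold, and by 0.52, 0.37 and 0.38 in the control, 0.6 g/L and 1.2 g/L piglets.

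One called probe set carries no single gene name in the annotation used here, and it was the only call higher in S3. Its values lay between 6.6 and 7.0 in S2 and between 7.0 and 7.3 in S3. The means were 6.73 and 7.18, a difference of -0.44 (SE 0.06, adjusted p = 0.0264). It was lower in S2 in every feeding group, by -0.25, -0.48 and -0.55 from control to 1.2 g/L.

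**Figure D1:**
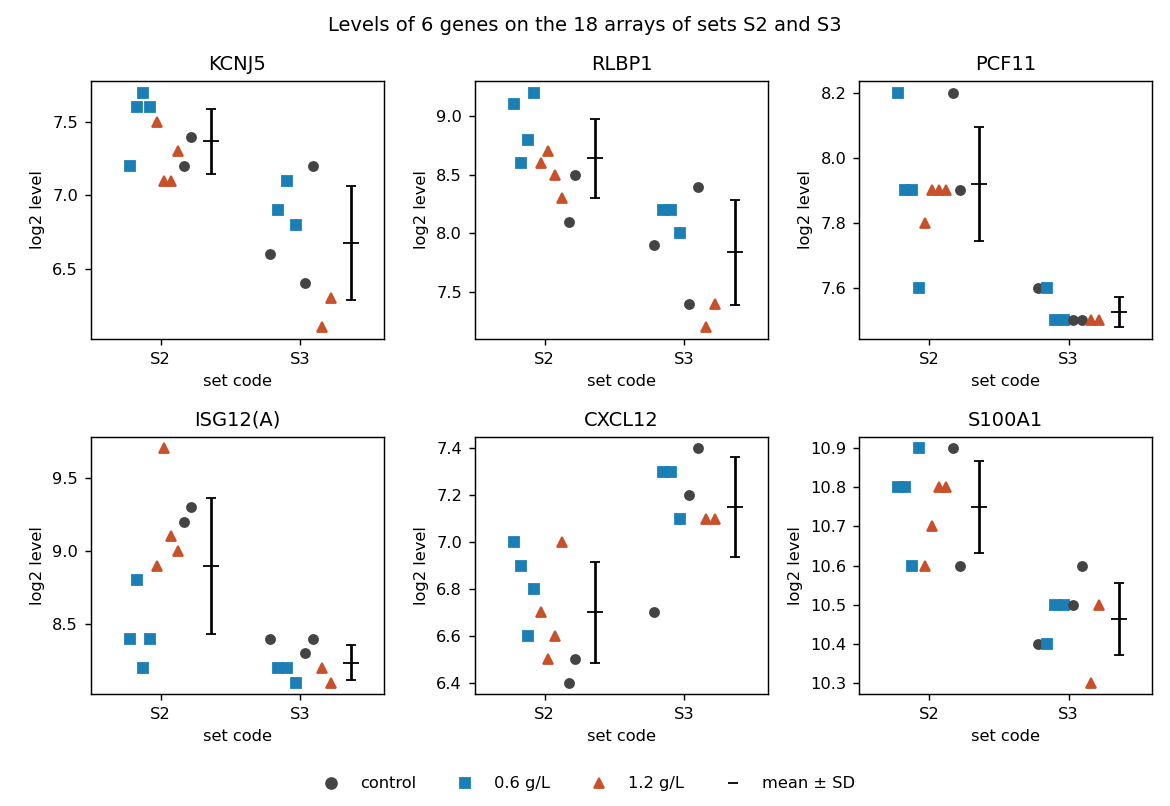
Log2 level of 6 genes on the 18 arrays, by set code (horizontal axis); points are single piglets by feeding group and bars show the mean and SD of each set. All S2 arrays lie above the S3 median for KCNJ5, RLBP1 and PCF11, which passed; ISG12(A), CXCL12 and S100A1, which did not pass, had adjusted p of 0.0686, 0.103 and 0.132.

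None of the 4 calls outlived the loss of every single array. Without S2 replicate 7, 8 or 10, or S3 replicate 2, 3, 4, 7 or 8, no probe set passed at all. The KCNJ5 call also ended without S2 replicate 3 or S3 replicate 5, and over all 18 omissions its difference stayed between 0.66 and 0.79 with an adjusted p from 0.00186 to 0.16. RLBP1 kept its call in 4 of the 18 omissions (S2 replicates 2 and 9, S3 replicates 1 and 6; difference 0.74 to 0.91, adjusted p 0.00194 to 0.173). PCF11 kept it in 2 (S2 replicates 1 and 4; difference 0.37 to 0.45, adjusted p 0.00887 to 0.169), and the unnamed probe set in 10 (difference -0.49 to -0.40, adjusted p 0.0021 to 0.108). The sets also differed in how many arrays carried Dap, a polyadenylated RNA added as a labelling control. It was absent (below log2 6) on 2 of 10 S2 arrays and 4 of 8 S3 arrays. With its presence in the model no probe set passed, while the differences of KCNJ5, RLBP1 and PCF11 were 0.73, 0.85 and 0.44. On the arrays with Dap alone they were 0.76, 0.82 and 0.40.

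The 20 genes next in order of p did not pass, with adjusted p between 0.0686 and 0.313. Of these, 19 were higher in S2, by 0.19 to 0.75, and CXCL12 was lower. All 24 leading genes and probe sets, the 4 called ones included, differed in the same direction in each of the 3 feeding groups. They were ranked on those same arrays, so their common direction is a description. ISG12(A), an interferon-stimulated gene, had the smallest p among those that failed. It lay at 8.1 to 8.4 on all 8 S3 arrays and ranged from 8.2 to 9.7 in S2, where 7 of 10 arrays exceeded the highest S3 value (difference 0.69, SE 0.12, adjusted p = 0.0686). CXCL12, a chemokine that guides migrating neurons and leukocytes, averaged 6.70 ± 0.22 (SD) in S2 and 7.15 ± 0.21 in S3 (difference -0.47, adjusted p = 0.103). A dimmer CXCL12 probe set differed by 0.11. BROX, whose protein carries a Bro1 domain, showed 0.75 (SE 0.16, adjusted p = 0.203).

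The remaining 17 are given by gene, with no group tested. FCGR3A, an Fc receptor of phagocytes, averaged 7.92 ± 0.29 in S2 and 7.50 ± 0.21 in S3 (adjusted p = 0.258), and its dimmer probe set differed by 0.01. DNASE2, the lysosomal DNase, averaged 7.04 and 6.81, and RARRES2, which encodes the chemoattractant chemerin, 9.23 and 8.93. ANGPT1, the ligand of the endothelial receptor TIE2, averaged 6.94 and 6.53, and TJP1, the tight junction scaffold ZO-1, 6.35 and 6.04. ALDH7A1, an aldehyde dehydrogenase of lysine breakdown, differed by 0.47 and its second probe set by 0.39, so both leaned to S2. The secreted ribonuclease RNASE1 differed by 0.39, the calcium-binding S100A1 by 0.30, the membrane progestin receptor PAQR7 by 0.30, the vesicle transport gene SEC22C by 0.32 and the Polycomb ligase gene RNF2 by 0.22. KIAA1429, part of the complex that methylates adenosines in messenger RNA, differed by 0.23, CPPED1, a phosphatase gene, by 0.19, and MIPOL1, CCDC146, FAM118B and LOC102164640 by 0.41, 0.36, 0.31 and 0.42.

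Gene lists are described here by counts and medians, without a test of the list. Of 6039 genes with 1 probe set each, 335 (5.55%) were higher in S2 and 123 (2.04%) higher in S3 at an unadjusted p under 0.05, and the median difference was 0.01. A difference above 0 was seen in 3357 of these genes (55.6%), which is the share to set beside the list counts. No member of any list passed after adjustment.

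**Figure D2:**
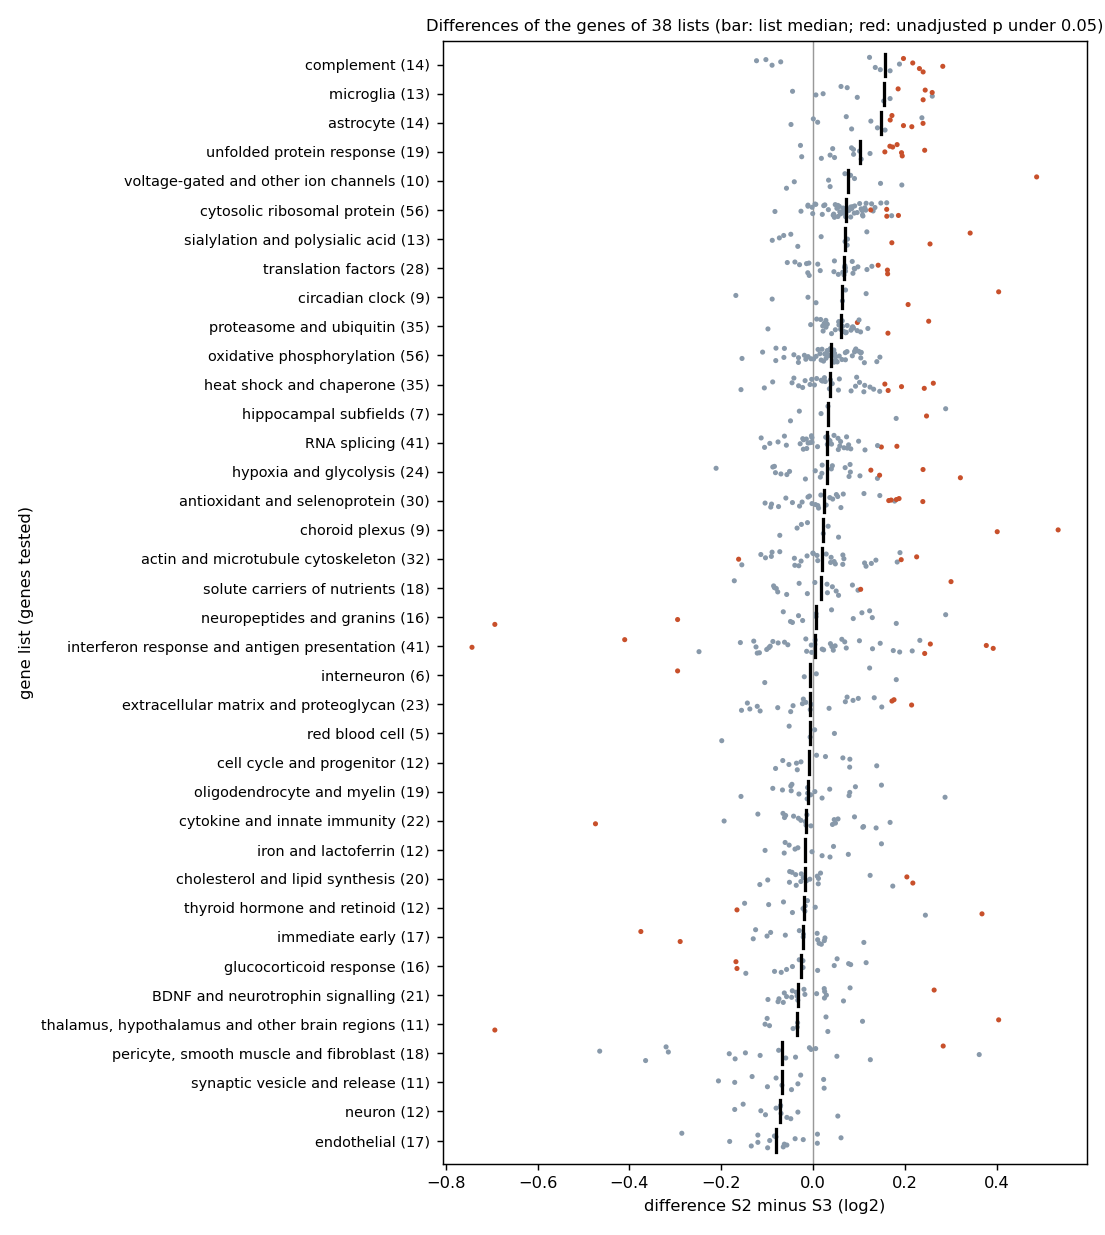
Difference S2 minus S3 (log2, horizontal axis) of every tested gene of 38 lists, in order of the list median (black bar); red points have an unadjusted p under 0.05 and none passed adjustment. Complement, microglia and astrocyte genes stand at the upper end with medians of 0.157, 0.154 and 0.149, and endothelial, neuron and synaptic vesicle genes at the lower end.

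Astrocyte and microglial genes leaned to S2. Of 14 astrocyte genes 13 had a difference above 0, with a median of 0.149 against 0.01 for all genes, and 5 were higher in S2 at an unadjusted p under 0.05 and none lower. APOE, the main lipid carrier of the brain, averaged 11.88 ± 0.12 in S2 and 11.70 ± 0.20 in S3 (difference 0.22, adjusted p = 0.409). GJA1, the gap junction protein connexin 43, averaged 11.55 and 11.36, and SPARCL1, a secreted synaptogenic protein, 13.45 and 13.29. The glutamate transporter SLC1A3 differed by 0.24 and its relative SLC1A2 by 0.00067. GFAP, the intermediate filament that rises in reactive astrocytes, was the 1 member below 0, at 12.70 ± 0.22 in S2 and 12.78 ± 0.19 in S3, and its 3 dimmer probe sets differed by -0.18 to 0.11. The list mean of each array lay between 11.36 and 11.60 in S2 and between 11.11 and 11.51 in S3, so the sets overlapped. By feeding group the astrocyte median was 0.03 in controls, 0.20 at 0.6 g/L and 0.10 at 1.2 g/L.

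Microglial genes showed a median of 0.154, with 12 of 13 above 0, 4 at an unadjusted p under 0.05 higher in S2 and none lower. P2RY12, the nucleotide receptor of resting microglia, averaged 9.76 ± 0.25 in S2 and 9.57 ± 0.17 in S3 (difference 0.24, adjusted p = 0.376). LAPTM5, a lysosomal membrane protein of leukocytes, averaged 10.08 and 9.89, and the complement subunit C1QA 6.04 and 5.83. AIF1, which encodes the marker IBA1, averaged 8.83 and 8.72 (adjusted p = 0.648). The list median was 0.28 in controls and 0.10 at either dose of lactoferrin. The highest list mean of S2, 7.65, came from control replicate 10, which also had the highest oligodendrocyte mean (10.75, against 9.71 to 10.20 on the other S2 arrays); its part in the result was not tested, and without this array the microglial median was 0.109.

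Complement genes, several of which microglia and astrocytes make, had a median of 0.157, with 10 of 14 above 0 and 5 at an unadjusted p under 0.05, all higher in S2. By feeding group the median was 0.025 in controls (7 above and 7 below 0), 0.15 at 0.6 g/L and 0.11 at 1.2 g/L. The protease C1S averaged 7.70 and 7.49, the membrane inhibitor CD59 9.33 and 9.16, and C4A, a cascade component, differed by 0.28. CFD, CFP and CFB of the alternative pathway and the inhibitor CD46 were the 4 members below 0, by -0.12 to -0.07. C1QA, C1QC and CLU each stand on more than 1 of these lists, which are therefore not independent.

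**Figure D3:**
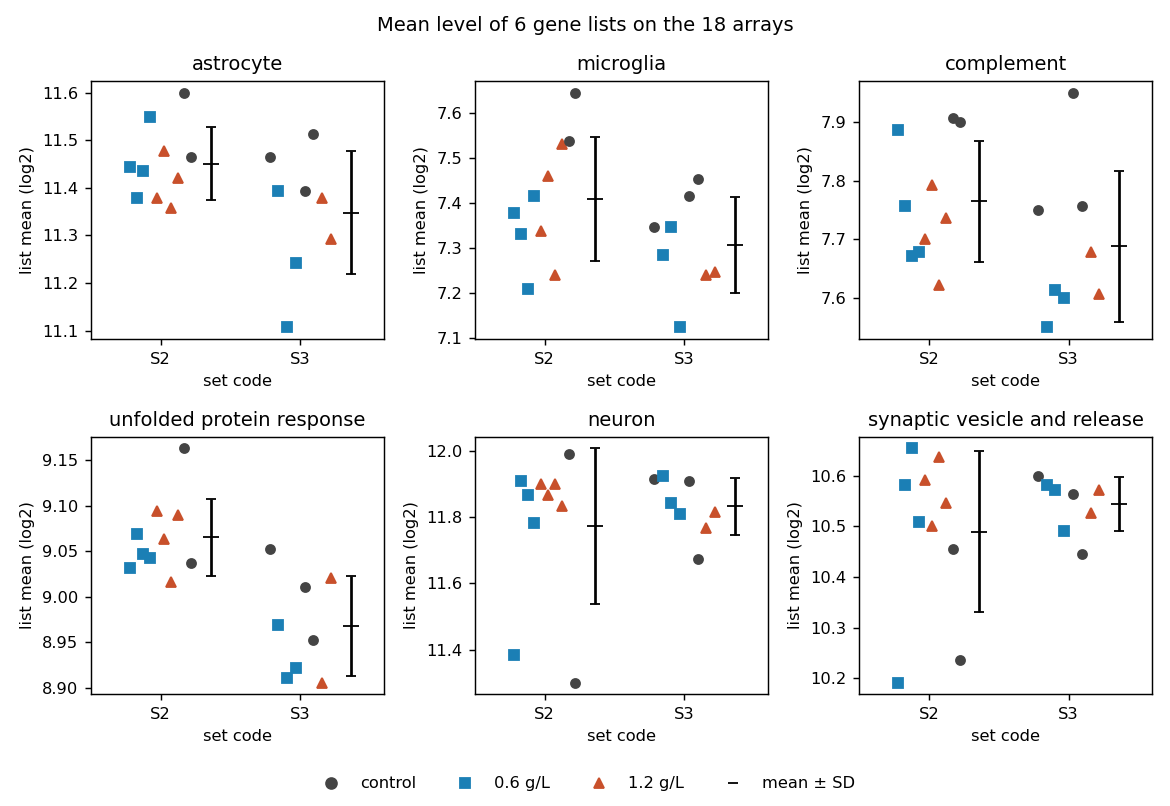
Mean log2 level of 6 gene lists on each of the 18 arrays by set code (horizontal axis); points are single piglets by feeding group and bars show the mean and SD of each set. For the unfolded protein response list all 10 S2 arrays lie above the S3 median; for the neuron and synaptic vesicle lists S2 replicates 1 and 10 lie far below the other S2 arrays.

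Genes for protein folding and synthesis leaned the same way by smaller amounts. The unfolded protein response is the programme by which the endoplasmic reticulum raises its folding capacity. Its list had a median of 0.101, 17 of 19 members above 0, and 7 higher in S2 at an unadjusted p under 0.05 with none lower. XBP1, its transcription factor, averaged 9.29 ± 0.07 in S2 and 9.12 ± 0.12 in S3 (difference 0.18, adjusted p = 0.318). MANF, a secreted protein induced by this stress, averaged 9.39 and 9.14, and the chaperone CANX 11.37 and 11.20. The 6 probe sets of CANX did not move together: the other 5 differed by between -0.23 and 0.35. DDIT3 and ATF3, which mark strong stress, differed by 0.09 and 0.02. The list mean ran from 9.02 to 9.16 in S2 and from 8.91 to 9.05 in S3, and the list median was 0.12, 0.13 and 0.10 from control to 1.2 g/L.

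Heat shock and chaperone genes had a median of 0.04 and 5 of 35 higher in S2 at an unadjusted p under 0.05, among them DNAJB1, a co-chaperone (8.55 and 8.31), and CCT7, a subunit of the chaperonin ring (10.14 and 9.99). HSP90B1, also among the 5, stands on the unfolded protein response list too, so these lists are not independent. Proteasome and ubiquitin genes were above 0 in 33 of 35 cases with a median of 0.06, and PSME1, a proteasome activator subunit, averaged 8.76 and 8.54. The proteasome median was 0.10 in controls, 0 at 0.6 g/L (12 above and 17 below 0) and 0.15 at 1.2 g/L, and it was 0.018 without S3 replicate 7 and 0.02 on arrays with Dap. Cytosolic ribosomal protein genes were above 0 in 50 of 56 cases with a median of 0.07, and 4 were higher in S2 at an unadjusted p under 0.05. By feeding group the ribosomal median was 0.18, 0 and 0.08, and without the 3 arrays of lowest correlation it was -0.0098. Translation factors had a median of 0.07, and EIF4B was close to uniform within S2, at 9.99 ± 0.03 against 9.85 ± 0.09 in S3 (adjusted p = 0.414). Oxidative phosphorylation genes had a median of 0.04, none of 56 at an unadjusted p under 0.05, and a sign that changed with the feeding group (0.08, -0.04 and 0.13).

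Genes of the neuron, synaptic vesicle and endothelial lists leaned to S3, with no member at an unadjusted p under 0.05. The neuron list had a median of -0.07 with 11 of 12 members below 0. SYN1, a synaptic vesicle phosphoprotein, averaged 8.63 ± 0.27 in S2 and 8.76 ± 0.07 in S3 (adjusted p = 0.698), MAP2, of the dendritic cytoskeleton, 12.64 and 12.75, and STMN2, a microtubule regulator of growing axons, 12.77 and 12.85. The synaptic vesicle list, which shares SYN1, SNAP25 and SYT1 with it, also had a median of -0.07, with 9 of 11 below 0. Both turned at 1.2 g/L: the neuron median was -0.21 in controls, -0.10 at 0.6 g/L and 0.075 at 1.2 g/L (10 of 12 above 0), and the synaptic vesicle median -0.17, -0.075 and 0.05 (7 of 11 above 0). The neuron mean was 11.38 and 11.30 on S2 replicates 1 and 10, against at least 11.78 on the other S2 arrays and 11.68 on the lowest S3 array. Without the 3 arrays of lowest correlation (these 2 and S3 replicate 7) the neuron and synaptic vesicle medians were 0.03 and 0.02, which turned the direction.

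Endothelial genes had a median of -0.08, 14 of 17 below 0. CD93, a receptor of endothelial cells, averaged 9.66 and 9.78, ESAM, a junction molecule, 6.36 and 6.55, and VWF, a clotting protein, 6.77 ± 0.29 and 7.08 ± 0.39 (adjusted p = 0.705). Dimmer probe sets differed by 0.0029 and 0 for ESAM, by -0.0034 and -0.05 for VWF and by -0.089 for CD93. The pericyte, smooth muscle and fibroblast list had a median of -0.07, with VIM, a cytoskeletal filament, the 1 gene at an unadjusted p under 0.05 and higher in S2 (12.37 and 12.11), and MGP, an inhibitor of calcification, at 6.51 ± 0.30 and 7.03 ± 0.86. The control array S3 replicate 5 had the highest endothelial mean (7.39, against 6.98 to 7.17 on the other S3 arrays) and the highest pericyte mean (8.48, against 7.62 to 7.93). Without it the pericyte median was -0.0432, and its part in the result was not tested. The endothelial median was -0.23 in controls, 0.05 at 0.6 g/L and -0.05 at 1.2 g/L.

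Oligodendrocyte and myelin genes differed little, with a median of -0.01, 8 of 19 above 0 and none at an unadjusted p under 0.05. MBP, the main myelin protein of its kind, averaged 14.52 ± 0.14 and 14.51 ± 0.08. CNP differed by 0.29, CRYAB by -0.16 and TF by 0.15, all with unadjusted p over 0.2. The direction varied with the feeding group, at 0.20 in controls, 0.03 at 0.6 g/L and -0.18 at 1.2 g/L, and with the array left out, from -0.108 without S2 replicate 10 to 0.0853 without S2 replicate 9.

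Interferon response and antigen presentation genes, which the cell raises on viral or inflammatory alarm, had a median of 0.005 over 41 genes, 22 above 0. The direction varied with the feeding group. The median was -0.083 in controls (13 above and 28 below 0), 0.008 at 0.6 g/L (22 and 19) and 0.175 at 1.2 g/L (25 and 14). At an unadjusted p under 0.05 4 were higher in S2 and 2 higher in S3. ISG15, a ubiquitin-like protein, averaged 7.97 ± 0.34 and 7.60 ± 0.24 (difference 0.39, adjusted p = 0.318), and the class I antigen gene SLA-2 9.92 and 9.56. UBD, another ubiquitin-like protein, went the other way, at 4.96 ± 0.31 and 5.35 ± 0.33 (difference -0.41, adjusted p = 0.404), and the antiviral enzyme gene OAS1 differed by -0.74. The OAS1 value was the lowest difference of the list, but its p was not among the 3 smallest there. The list mean ran from 6.81 to 7.46 in S2 and from 6.86 to 7.29 in S3, below the means of S4 (7.73) and S5 (7.74). CXCL12 was the 1 of 22 cytokine and innate immunity genes at an unadjusted p under 0.05. In the same list IL1R1, the interleukin-1 receptor, differed by -0.19 and TNFRSF1B, a tumour necrosis factor receptor, by -0.12.

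Choroid plexus genes gave a mixed picture, with a median of 0.02 over 9 tested genes, TTR included, and 4 more on the array too dim to test. FOLR1, the folate receptor that carries folate into cerebrospinal fluid, averaged 7.36 ± 0.26 in S2 and 6.86 ± 0.46 in S3 (difference 0.53, adjusted p = 0.376), and F5, coagulation factor V, 9.22 and 8.83. ENPP2 and AQP1, both abundant in that epithelium, differed by 0.02 and 0.06. Red blood cell genes had a median of -0.01 over 5 genes, and HBB averaged 9.08 ± 0.23 and 9.05 ± 0.23.

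Peptide and hormone-related genes differed in both directions. CARTPT, a neuropeptide precursor, averaged 9.34 ± 0.54 in S2 and 9.97 ± 0.79 in S3 (difference -0.69, adjusted p = 0.461). Its S2 values lay between 9.2 and 9.8 apart from replicate 1 at 7.9, and its S3 values ran from 9.1 to 11.2. NPY, an inhibitory peptide of interneurons, averaged 8.28 and 8.54. PDYN, the dynorphin precursor of granule neurons, averaged 9.01 ± 0.68 and 8.69 ± 0.62, with a lowest value of 7.4 in both sets. DIO2, which activates thyroid hormone, averaged 7.16 ± 0.16 and 6.80 ± 0.28 (difference 0.37, adjusted p = 0.346). RORA, a nuclear receptor of the clock and of thalamic neurons, differed by 0.40 (adjusted p = 0.318), and ARNTL, a core clock activator, by 0.21. The immediate early list had a median of -0.02: DUSP1 and KLF4 differed by -0.29 and -0.38, at unadjusted p of 0.0241 and 0.0255 by limma, and FOS averaged 6.44 ± 0.32 and 6.39 ± 0.26. Of the glucocorticoid-responsive genes KLF9 and SGK1 both differed by -0.17. The annotation lists KLF9 under a second gene ID, counted separately in its lists, whose probe set differed by -0.02 (limma, unadjusted p = 0.814).

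Growth factor, sialic acid and iron genes bear on the feeding question of the study. BDNF, the neurotrophin of activity-dependent synapses, averaged 9.04 ± 0.33 in S2 and 9.06 ± 0.31 in S3 (adjusted p = 0.92). PTN, a heparin-binding growth factor, was the 1 of 21 genes of the neurotrophin list at an unadjusted p under 0.05, at 11.87 ± 0.16 and 11.64 ± 0.18 (difference 0.26, adjusted p = 0.322). Its dimmer probe set differed by -0.08. Sialylation genes had a median of 0.07 over 13 genes. NANP and NANS, enzymes of sialic acid synthesis, differed by 0.25 and 0.17, and the sialyltransferase ST6GALNAC5 by 0.34, with 1.05 at 1.2 g/L, -0.05 in controls and 0.07 at 0.6 g/L. Without S3 replicate 4 the list median was -0.0086. Iron genes had a median of -0.02 with none of 12 at an unadjusted p under 0.05. TFRC, the transferrin receptor, averaged 4.91 ± 0.14 and 4.95 ± 0.14, close to the filter on dim probe sets (log2 4.92).

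Antioxidant genes had a median of 0.02, and 5 of 30 were higher in S2 at an unadjusted p under 0.05, of which 4 are peroxiredoxins, enzymes that remove peroxides. PRDX6 averaged 8.86 and 8.69, PRDX3 10.81 and 10.66, and NQO1, a quinone reductase, 8.29 and 8.07. GPX1 varied widely between piglets, at 9.39 ± 0.93 and 9.54 ± 1.27 (adjusted p = 0.979), as did AQP3, a water and glycerol channel, at 9.86 ± 1.04 and 9.76 ± 1.03 (adjusted p = 0.982). Of other lists, MARCKS, which links actin to the membrane, differed by 0.23, the bicarbonate cotransporter SLC4A4 by 0.30, the splicing regulator HNRNPK by 0.18, the hypoxia-induced ANKRD37 by 0.32 and the channel partner KCNIP4 by 0.49. None of these passed, and a dimmer HNRNPK probe set differed by -0.017.

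The other sets place S2 and S3 among all 36 arrays. Of the 335 genes higher in S2 at an unadjusted p under 0.05, 266 (79.4%) had their lowest set mean in S3, and 99 (29.6%) their highest in S2. Over all 6039 genes these counts were 1389 and 755 (12.5%). Of the 123 genes higher in S3, 92 (74.8%) had their highest set mean in S3 and 41 (33.3%) their lowest in S2, against 18.2% and 8.78% of all genes. The choice of genes on S2 and S3 favours both ends, so these shares are a description. Among the 22 leading genes higher in S2, S3 was the lowest of the 5 sets for all 22 and S2 the highest for 12.

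PCF11 averaged 7.95 ± 0.06 in S1, 7.77 ± 0.14 in S4 and 7.88 ± 0.13 in S5, so all 3 stood nearer to S2 (7.92) than to S3 (7.53). KCNJ5 averaged 7.30 ± 0.36 in S1, 6.96 ± 0.31 in S4 and 7.0 ± 0.37 in S5, between S2 (7.37) and S3 (6.68). RLBP1 was different: S5 (7.84 ± 0.27) and S4 (7.98 ± 0.48) stood near S3 (7.84), and S2 (8.64) was the highest. The unnamed probe set averaged 6.60, 7.04 and 6.72 in S1, S4 and S5. ISG12(A) was far higher in S4 (9.86 ± 1.41) and S5 (10 ± 0.68) than in S2 or S3, and S4 spread from below S3 to above every S2 array. With all 36 arrays and the 5 set codes in the model, PCF11 was the single call between S2 and S3 (difference 0.40, adjusted p = 0.016), and KCNJ5 and RLBP1 each had an adjusted p of 0.25.

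**Figure D4:**
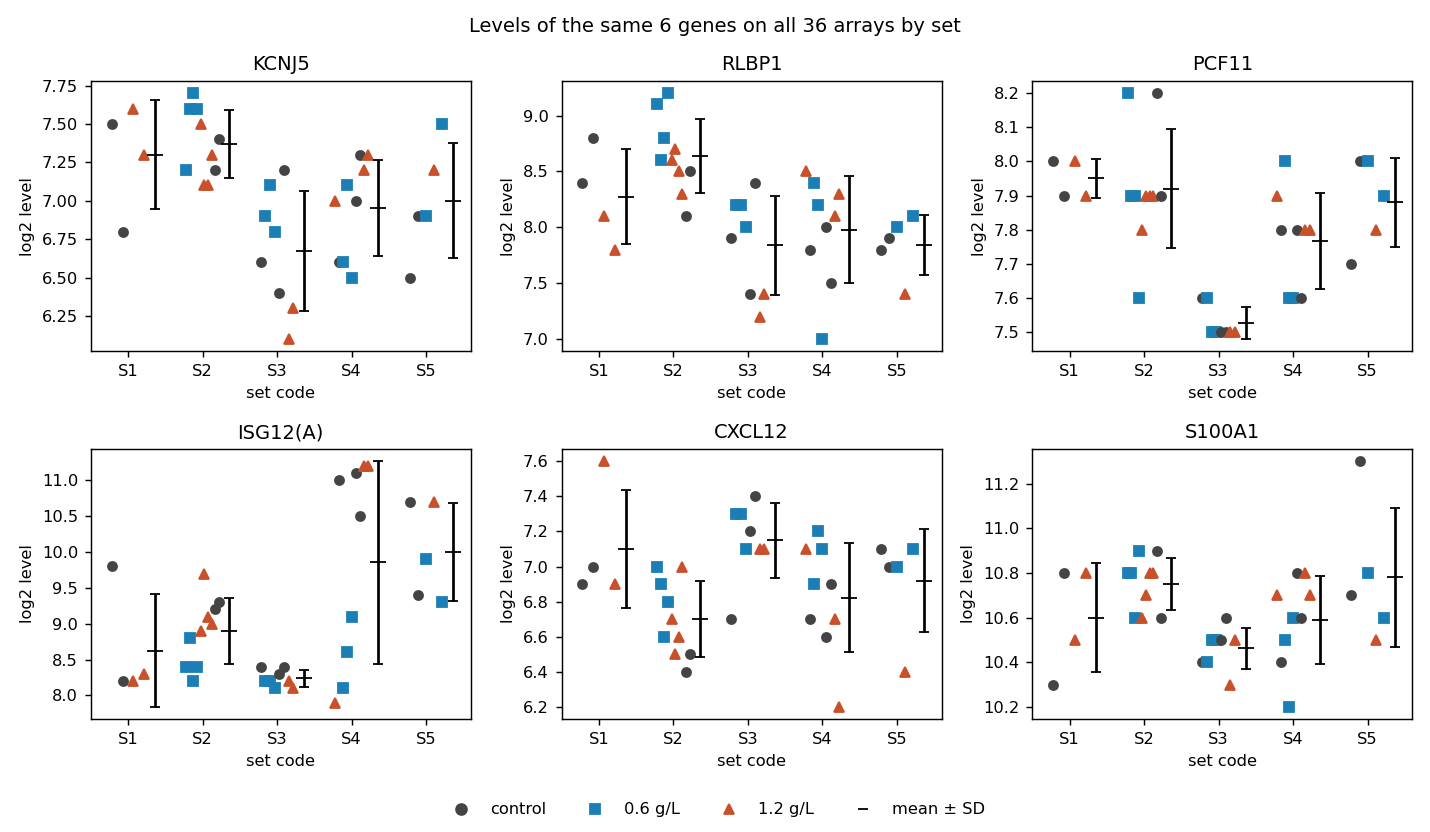
Log2 level of the same 6 genes on all 36 arrays by set code (horizontal axis); points are single piglets by feeding group and bars show the mean and SD of each set. S3 has the lowest mean for KCNJ5, RLBP1, PCF11, ISG12(A) and S100A1 and the highest for CXCL12, and ISG12(A) is highest in S4 and S5.

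Whether the set difference depended on feeding group was tested with an interaction. No probe set passed (0%; smallest adjusted p 0.653), and 1356 (7.53%) had an unadjusted p under 0.05 by limma's F test. In 17 of 18 fits without 1 array none passed either. Without S2 replicate 9 there were 401, and S2 then held a single control array, replicate 10. The 5 genes of smallest p are given as values. FNDC1 ran in opposite directions: in controls it averaged 6.10 in S2 and 6.97 in S3, at 0.6 g/L 6.70 in both, and at 1.2 g/L 7.0 and 6.05. CES3, a carboxylesterase gene, was 6.7 on both S3 arrays at 1.2 g/L and 5.9 on all 4 S2 arrays there. IGFBP2, which binds insulin-like growth factors, averaged 6.00 and 6.47 in controls and 6.63 and 6.33 at 0.6 g/L. TMEM38B, an intracellular cation channel, was higher in S2 by 0.80 in controls and by 0.68 at 1.2 g/L, with -0.19 at 0.6 g/L. SLC2A4RG differed by -0.27, 0.37 and -0.25. Each cell of this design held 2 to 4 piglets.

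**Figure D5:**
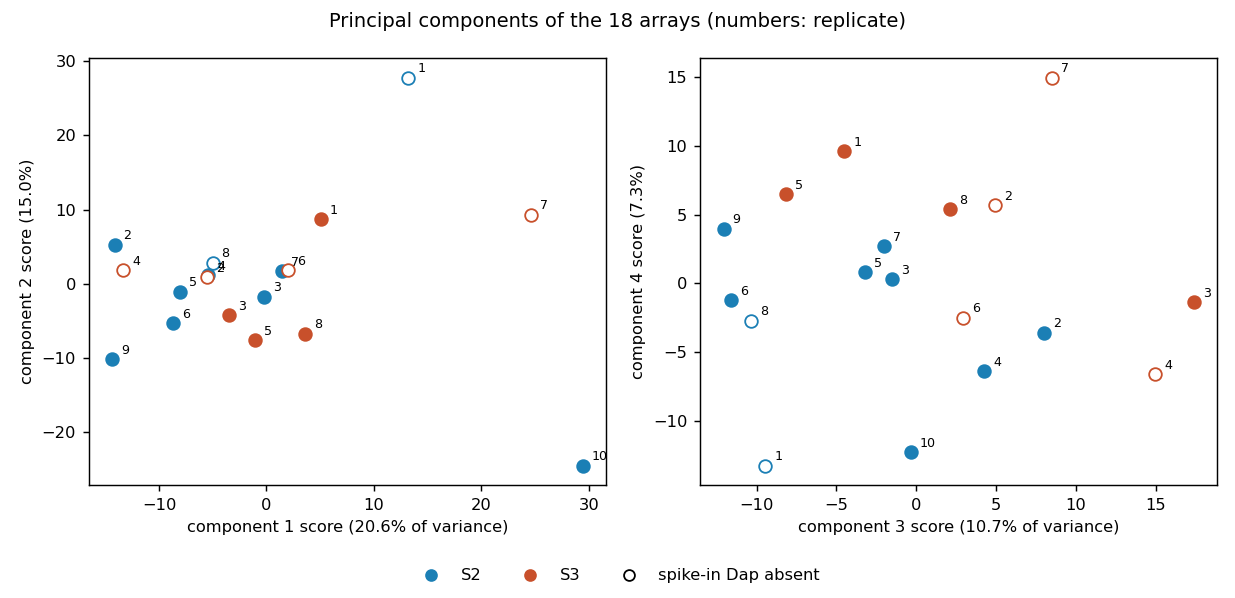
Scores of the 18 arrays on principal components 1 and 2 (left) and 3 and 4 (right) of the 18006 tested probe sets; colours give the set, numbers the replicate, and open circles mark arrays without the spike-in Dap. The sets overlap on components 1 and 2, where S2 replicates 1 and 10 and S3 replicate 7 lie apart, and are shifted on components 3 and 4.

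On the arrays as wholes, 17 measures were compared by an exact two-sided permutation of the set code within feeding groups (5250 arrangements). None passed after adjustment over the 17, and 2 had an unadjusted p under 0.05: component 3, with 10.7% of the variance (p = 0.00876, adjusted p = 0.141), and component 4, with 7.26% (p = 0.0166, adjusted p = 0.141). Component 1 held 20.6% and did not separate the sets (exact p = 0.74). Dap averaged 7.99 ± 2.44 in S2 and 6.30 ± 3.40 in S3 (exact p = 0.28). The actin 3′ minus 5′ difference, a sign of RNA integrity and labelling length, averaged 3.00 ± 0.61 and 3.19 ± 0.39 (exact p = 0.382). That of GAPDH was also lower in S2, at 0.91 ± 0.137 against 1.025 ± 0.071 in S3 (exact p = 0.122). The hybridisation controls bioB, bioC, bioD and cre differed by at most 0.0112. Averaged over its pairings, the correlation between arrays was lowest for S2 replicate 10 (0.976), S2 replicate 1 (0.980) and S3 replicate 7 (0.981), and without these 3 arrays no probe set passed and 1599 had an unadjusted p under 0.05.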

How the data were processed

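The authors deposited log2 values per probe set, made by RMA (Expression Console 1.1, as the submitters' processing notes name it; per the labels) and rounded to 1 decimal. Genes were named from the platform annotation, which gave 10069 of 23999 probe sets a single symbol, 9961 of them matched to RefSeq by gene ID. Probe sets with a mean under the 25th percentile (log2 4.92) and 124 controls were left out.

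S2 minus S3 was fitted on 18 arrays in R 4.3.3 with limma 3.58.1 (set and feeding group, eBayes, two-sided, Benjamini-Hochberg over 18006 probe sets, threshold 0.05) and tested on simulated data. Array measures were permuted exactly in Python 3.11.15. The number of arrays limits the precision.

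Named by rule were all probe sets that passed, the 20 genes of smallest p, up to 3 of smallest p per list, a few fixed genes (GFAP, MBP, SNAP25, AIF1, TTR, HBB, FOS, PDYN, BDNF, GPX1, AQP3, LTF, TFRC) and the 5 interaction genes of smallest p. Further list members, such as OAS1, SLC1A2, C4A, DDIT3, ENPP2 and RGS14, and the SRSF11 probe set were named outside this rule. Some genes that the rule selects are not described. The members and the 45 lists were chosen with earlier results of these data known. Dropping the 3 arrays of lowest correlation, and most settings for list medians, were added after seeing the data.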

Additional observations from a re-analysis of the deposited data

Results flagged for a closer look

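A single array of a set lay apart from the others in 46 of 398 tests (11.6%). The test was the ratio of its gap to the range of the set (Dixon's 95% limit). Its chance rate of about 1 in 20 holds for independent, unrounded values. Gene values here carry 1 decimal, so a single rounding step can pass the limit, as for EIF4B in S2. The items also share the same arrays, so the 11.6% is a description. S2 replicate 10 was the array apart in 11 tests, and S2 replicate 1 and S3 replicate 7 in 7 each.

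On S2 replicate 10 LAPTM5 was high at 10.7, C1S at 8.1, HNRNPF at 10.4 and VEGFA at 9.9, and the list means of oligodendrocyte and of splicing genes at 10.75 and 9.69. PDYN was low there at 7.4, CACNB4 at 7.7, KCNIP1 at 6.7, and the list means of subfield and ion channel genes at 7.31 and 8.10. On S2 replicate 1 CARTPT was low at 7.9, CCK at 9.2, SYN2 at 8.1 and NDUFA10 at 9.1, and AURKB (7.1), the endothelial list mean (7.24) and the array median (6.7) were high. On S3 replicate 7 RORA was low at 5.6, ANKRD37 at 5.1, KCNIP4 at 5.6 and SLC25A6 at 12.2, as were the list means of translation factors (10.06) and cytoskeleton genes (10.33) and the mean correlation with the other arrays (0.981). On S3 replicate 5 AHSP was high at 6.0, IL1R1 at 6.0, the spike-in cre at 14.3, and the endothelial and pericyte list means at 7.39 and 8.48.

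S2 replicate 8 was high for UBD (5.7), DUSP1 (8.9), KLF4 (6.5) and the cytokine list mean (6.90). S2 replicate 9 was high for CPPED1 (8.0) and FADS2 (6.6) and low for FSCN1 (10). S3 replicate 6 was high for DSP (5.7), KCNIP1 (7.3) and the splicing list mean (9.55). S2 replicate 4 was high for HNRNPD (11.2) and SLC25A6 (12.5), S2 replicate 2 low for EIF4B (9.9) and S3 replicate 4 low for NQO1 (7.7). S3 replicate 1 was low for CXCL12 (6.7) and high for SEC22C (5.4).

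In 3 of 199 items, all genes, S2 lay wholly above S3 in at least 1 feeding group and wholly below in another. The items were named genes, list means and array measures, and the share over all probe sets was not counted. Each feeding group held 2 to 4 piglets per set, so full separation is easily reached. FNDC1 and SLC2A4RG were among the items for their small interaction p, so their opposite directions are a description. ENO1, a glycolytic enzyme, differed by 0.20 at 0.6 g/L and 0.33 at 1.2 g/L, and by -0.13 in controls, and the separation itself was not tested. FNDC1 differed by 0.95 at 1.2 g/L and -0.87 in controls, and SLC2A4RG by 0.37 at 0.6 g/L and -0.27 in controls. The interaction test gave both an adjusted p of 0.653.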

How the results depend on the processing

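The number of probe sets that passed, 4, fell to 1 without the feeding group in the model, 1 with all 36 arrays, 2 with either the oligodendrocyte or the choroid plexus list mean as a covariate, and 0 with Dap as a covariate, on arrays with Dap alone (905 at an unadjusted p under 0.05), within control, 0.6 g/L or 1.2 g/L arrays alone, without the 2 S3 arrays whose second code is 0040 or 0041, and without the 3 arrays of lowest correlation. It stayed between 3 and 6 under the filters, centring, quantile normalisation, array weights, robust eBayes, 1 probe set per gene and the actin covariate. With 1 array left out it ran from 0 to 5 (0 in 8 of 18), with 1039 to 2120 at an unadjusted p under 0.05. For the interaction the ranges were 0 to 401 and 978 to 3279. The causes were not tested.

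Titles share replicate numbers 5 and 6 between sets. With the replicate block 1 probe set passed, none of the 4, and 736 had an unadjusted p under 0.05. The 4 same-numbered pairs had a mean correlation of deviations of 0.05. Each joined an S2 and an S3 piglet of different feeding groups, so they cannot show whether the numbers pair the samples. The block compares the sets only within the shared numbers 5 and 6. The replicate block also turned the direction of CNP (-0.52), ESAM (0.067), VWF (0.13), C1S (-0.083), NFIL3 (0.058) and BDNF (0.38), none called.

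Of 5255 values for named genes 92 were of calls lost and 7 of calls gained. Only the 4 called probe sets could lose a call, so 5255 is not the base for the 92. The direction turned in 132 of the 5255 values, all of uncalled genes (45 genes): 102 moved by less than 1 SD of the arrays within a set, and 30 by more, 6 of them under the replicate block. Of the larger turns, those in controls alone were DSP (-0.20), PDYN (-0.77), KLF9 (0.017), NFIL3 (0.083), ENO1 (-0.13), FGF2 (0.20), ST6GALNAC5 (-0.05), SCG3 (-0.083), KCNIP1 (-0.12), EZR (-0.05), CCND2 (-0.10) and FOS (-0.32). At 0.6 g/L these were ESAM (0.017), CD93 (0.075), HBB (-0.31), TNFRSF1B (0.025), NANS (-0.033), FSCN1 (0.042) and AURKB (0.058), and at 1.2 g/L F5 (-0.13), AHSP (0.20), SYT5 (0.10), BDNF (0.25) and AQP3 (1). Of the list medians, that of translation factors moved to 0.025 on arrays with Dap and 0.026 without the 3 arrays of lowest correlation, and that of sialylation ranged from -0.0086 to 0.099 with 1 array left out. Signal limits LTF, which was under the filter on dim probe sets.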

Other observations

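Of the genes of hormone, matrix and lipid lists not described above, TIMP1, an inhibitor of matrix proteases, averaged 7.19 in S2 and 7.06 in S3, LOX, a collagen cross-linker, 5.90 and 5.71, and LPL, lipoprotein lipase, 5.86 and 5.64. All 3 had an unadjusted p under 0.05 and none passed (limma, adjusted p of 0.518, 0.555 and 0.476). FADS2, a desaturase of polyunsaturated fatty acids, averaged 6.10 and 5.91, while 3 dimmer probe sets and the brightest one of the elongase gene ELOVL6 differed by -0.12 to -0.02.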
